A study of Homo sapiens with 10 samples.

Results

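Cells sense sterols at the endoplasmic reticulum (ER). The sterol regulatory element-binding proteins (SREBPs) are transcription factors made as ER membrane precursors, which the escort protein SCAP carries to the Golgi for cleavage, and INSIG proteins hold SCAP back in the ER when sterols are plentiful. Cleaved SREBP2 is known mainly for driving sterol synthesis genes and cleaved SREBP1 for driving fatty acid synthesis genes, and in liver cells both act beside receptors that take lipoproteins up from the medium. The 8 genes described here were chosen by name and include the precursors (SREBF1, SREBF2), the escort (SCAP), the retention proteins (INSIG1, INSIG2), the receptors VLDLR and SCARB1, and MYLIP, an E3 ubiquitin ligase that marks VLDLR and related receptors for degradation. All 8 were found among the 32738 genes of the count table, 7 had at least 1 count, and 6 passed the filter on low counts and were tested.

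The libraries came from HepG2, a human hepatoma line of hepatocyte-like character, kept in regular growth medium (control, 5 libraries) or given 2 µg/ml tunicamycin for 17 h (5 libraries). Tunicamycin blocks N-linked glycosylation and thereby causes ER stress, and the control was the same medium without the drug, with no carrier named. The series text describes 5 replicate experiments on separate days, and a control and a tunicamycin library with the same replicate number were taken as a pair, although no label gives a library's day. The cells were a single established line, and in bulk RNA a change in the number of cells and a change in RNA per cell cannot be told apart.

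The 3′ end of polyadenylated RNA was sequenced, which yields about a single fragment per transcript, so levels are given as normalized counts without division by length. Comparing levels between genes assumes that their 3′ ends were captured and counted equally well, which was not tested. Normalized counts are gene counts divided by the library size after TMM scaling and multiplied by the mean scaled library size. Totals were 4242538 to 4888292 counts in the control libraries and 2234682 to 5029864 in the tunicamycin libraries, with tunicamycin replicates 4 and 5 the shallowest of the 10, and mitochondrial genes took 18.3 to 28.8% of the counts. HSPA5, the ER chaperone BiP, rose 7.84-fold (log2 fold change 2.97, standard error 0.0842), and of 9 ER stress genes tested 8 rose and 1, XBP1, fell. All 10 hepatocyte markers examined were detected, with a mean of 11200 normalized counts for ALB in control cells, and 5 of them fell. Of 9 markers of other cell types that matched the table, 3 (PTPRC, CD3E and DES) were at 0 in all libraries, and together they took 19 to 41 counts per control library and 5 to 37 per tunicamycin library, mostly from CD68. CD68 itself was called lower (log2 fold change -0.83, edgeR adjusted p = 0.0319), and the highest tunicamycin sum, in replicate 4, held 19 counts of CD68 and 18 of CDH5, which was at 0 in the other libraries.

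Among all 12733 tested genes, 34.2% passed an adjusted p of 0.05 (edgeR quasi-likelihood test, Benjamini-Hochberg), 17.6% as higher and 16.6% as lower in tunicamycin. Of the 6 tested members, 1 rose (VLDLR), 1 fell (SREBF2) and 4 did not pass. The control and tunicamycin libraries did not overlap for 23.5% of the tested genes and for 2 of the 6 members, again VLDLR and SREBF2. With 2 of 6 called, the members were called about as often as genes in general in this fit, which ignores the assumed pairs. A fit with the replicate number as a block called 1 member higher and 3 lower, adding SCAP and SCARB1. That fit called 4811 of all 12733 tested genes.

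The promoter stretches of the precursor genes are shown because the genes encode the paralogous SREBPs at the centre of the pathway. They are RefSeq sequences of build GRCh38.p14, printed 5′ to 3′ on each gene's own strand, and capitals mark the motif letters found by the search, on either strand. The motifs searched that occur there are TCACNCCAC, a sterol regulatory element (SRE), the CCAAT box, whose letters are its name, and the GC box GGGCGG.
SREBF2, chr22:41832855-41833104, plus strand: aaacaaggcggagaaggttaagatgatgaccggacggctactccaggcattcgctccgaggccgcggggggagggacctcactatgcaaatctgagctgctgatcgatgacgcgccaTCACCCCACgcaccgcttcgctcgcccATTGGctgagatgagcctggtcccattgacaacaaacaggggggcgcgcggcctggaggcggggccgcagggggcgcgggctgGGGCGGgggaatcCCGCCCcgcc
SREBF1, chr17:17837003-17837236, minus strand: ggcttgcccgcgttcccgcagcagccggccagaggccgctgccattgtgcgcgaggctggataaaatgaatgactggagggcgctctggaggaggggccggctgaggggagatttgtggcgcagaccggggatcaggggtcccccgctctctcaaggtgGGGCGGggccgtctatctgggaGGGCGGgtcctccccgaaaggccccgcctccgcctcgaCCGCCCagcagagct
The SREBF2 stretch held the SRE letters TCACCCCAC at -133 to -125 from the transcript start and a CCAAT box at -106 to -102. It also held GC boxes at -23 to -18 and -10 to -5. The SREBF1 stretch held GC boxes at -91 to -86, -69 to -64 and -31 to -26, but no SRE or CCAAT letters. It comes from the only SREBF1 window available, at the 5′ end of the gene. Any other start of the gene was not searched.

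Windows from 250 bases before to 50 bases after a RefSeq transcript start were available for 7 of the 8 members, all but SCARB1, with 8 windows in all. The SRE letters were found on either strand in 1.13% of all 35116 such windows, and among the members only in that of SREBF2. The CCAAT box was far more common, in 34.6% of windows, and the GC box was in 45.0%. The E-box CACGTG, in 7.26% of windows, was found in those of SCAP and INSIG1. The letters TGACGTGG, known as an element of the unfolded protein response and present in 0.729% of windows, lay at 24 to 31 bases past the start in a window of INSIG2. No member window held TGATGNAA, a composite element bound by ATF4 (3.62% of windows), or the ER stress response element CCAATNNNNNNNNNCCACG (0.0769%), which contains a CCAAT box. These matches describe letters in the reference genome and were not tied to binding or to the counts. By gene, the SRE letters were in 0 of 18 sterol synthesis and uptake genes with a window and in 1 of 16 lipogenic genes. Over all 27305 genes with a window the share was 1.39%, so 0 of 18 does not set the sterol list apart. Only these exact letters within the window were counted, so variant or more distant elements would be missed.

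SREBF2 (ENSG00000198911, chromosome 22, 41833105 to 41907306 in GRCh38, plus strand), which encodes the SREBP2 precursor, fell. Control replicates 1 to 5 gave 305, 301, 253, 269 and 285 normalized counts. Tunicamycin replicates 1 to 5 gave 177, 169, 173, 169 and 218. Every tunicamycin library lay below every control library, and replicate 5 was the highest of the treated set. The mean went from 282 ± 21.9 (SD, n = 5) to 181 ± 20.8 (n = 5), a change of -36.3% in the fit. The log2 fold change was -0.65 (standard error 0.103, 95% interval -0.87 to -0.44, edgeR adjusted p = 6.95e-05), and the gene was lower in 5 of 5 pairs. An antisense RNA, SREBF2-AS1, shares 731 exon bases with it on the opposite strand and had 16 counts in all libraries together, against 2355 for SREBF2. Whether the counting used strand is not given in the sources used here.

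SREBF1 (ENSG00000072310, chromosome 17, 17810399 to 17837002, minus strand), which encodes the SREBP1 precursor, did not pass the test. Control replicates 1 to 5 gave 81.8, 116, 121, 159 and 152 normalized counts. Tunicamycin replicates 1 to 5 gave 87, 150, 101, 159 and 111. Both sets covered almost the same range, with replicate 1 the lowest and replicate 4 the highest in each. The means were 126 ± 31 and 122 ± 31.4 (SD, n = 5 each). The log2 fold change was -0.05 (95% interval -0.44 to 0.34, edgeR adjusted p = 0.85), with 3 pairs higher and 2 lower. A change of a size within that interval is not excluded by these libraries. Exons of SREBF1 share 556 bases with RAI1 on the opposite strand, and RAI1 had 832 counts in all, against 1222 for SREBF1.

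SCAP (ENSG00000114650, chromosome 3, 47413681 to 47477126, minus strand), the sterol-sensing escort, gave 590, 544, 509, 534 and 547 normalized counts in control replicates 1 to 5. Tunicamycin replicates 1 to 5 gave 513, 502, 473, 337 and 444. Replicate 4 was the lowest treated library, and the groups overlapped only through tunicamycin replicate 1, which lay just above control replicate 3. The means were 545 ± 29.5 and 454 ± 70.7 (SD, n = 5 each). The log2 fold change of -0.26 (standard error 0.104, 95% interval -0.48 to -0.04) did not pass (edgeR adjusted p = 0.0601), although SCAP was lower in 5 of 5 pairs. With the replicate number as a block, the same test gave -0.27 with an adjusted p of 0.0214, which passes. Without tunicamycin replicate 1 it gave -0.31 with an adjusted p of 0.0309.

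INSIG1 (ENSG00000186480, chromosome 7, 155297776 to 155310235, plus strand), the INSIG protein whose own gene is a known SREBP target, was at 0 counts in all 10 libraries. A count of 0 allows up to 3 counts per library, which is 2.53 to 6.05 normalized counts depending on the library, for counting error only. CHAC1, an ER stress gene, and the lipogenic enzyme gene ME1 were at 0 in all libraries too, and the sterol synthesis gene CYP51A1 had 1 count in all, 3 genes picked out after their values were seen. No exon of another gene overlaps those of INSIG1 in GENCODE on GRCh38. The counts were made on hg19 with Ensembl transcripts, so this does not show how its reads were counted. Whether reads from this gene were left uncounted was not tested, so no level of INSIG1 is given.

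INSIG2 (ENSG00000125629, chromosome 2, 118088452 to 118110997, plus strand), the second retention protein, did not pass the test. Control replicates 1 to 5 gave 69.7, 74.9, 101, 84.2 and 94.5 normalized counts. Tunicamycin replicates 1 to 5 gave 70.1, 102, 78.4, 122 and 90.8. The groups overlapped widely, and pairs 2 and 4 were higher while pairs 3 and 5 were lower. The means were 84.8 ± 12.9 and 92.8 ± 20.5 (SD, n = 5 each). The log2 fold change was 0.12 (95% interval -0.22 to 0.46, edgeR adjusted p = 0.615).

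VLDLR (ENSG00000147852, chromosome 9, 2621182 to 2660056, plus strand), the receptor for very low density lipoprotein, rose from a low level. Control replicates 1 to 5 gave 24.1, 6.24, 21.9, 15.2 and 30.5 normalized counts. Tunicamycin replicates 1 to 5 gave 53.2, 50.6, 54.8, 60.4 and 36.3. The groups did not overlap, but control replicate 5 and tunicamycin replicate 5 lay close together. The mean went from 19.6 ± 9.24 to 51.1 ± 9 (SD, n = 5 each), a 2.65-fold rise. The log2 fold change was 1.4 (standard error 0.275, 95% interval 0.83 to 1.98, edgeR adjusted p = 0.000567), higher in 5 of 5 pairs and above 97.2% of the tested genes.

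The size of the VLDLR change differed widely between the assumed replicate pairs. The log2 ratio within a pair was 1.13, 2.92, 1.31, 1.95 and 0.25 for replicates 1 to 5, so replicate 2 moved most and replicate 5 least. Few counts lay behind these values, with 28, 7, 25, 17 and 30 counts in control replicates 1 to 5 and 63, 51, 58, 44 and 18 in tunicamycin. The fewest counts lay in control replicates 2 and 4, with 7 and 17, and in tunicamycin replicate 5, with 18 in the shallowest library. An antisense RNA, VLDLR-AS1, shares 260 exon bases on the opposite strand and had 64 counts in all against 341 for VLDLR, and an unnamed long non-coding RNA outside the table shares 1100.

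SCARB1 (ENSG00000073060, chromosome 12, 124776856 to 124882668, minus strand), the high density lipoprotein receptor SR-BI, had the highest normalized counts of the tested members. Control replicates 1 to 5 gave 670, 738, 806, 803 and 958 normalized counts. Tunicamycin replicates 1 to 5 gave 557, 668, 674, 816 and 654. The groups overlapped, and tunicamycin replicate 4 stood above all other treated libraries. The means were 795 ± 107 and 674 ± 92.5 (SD, n = 5 each). The log2 fold change of -0.24 (standard error 0.108, 95% interval -0.47 to -0.01) did not pass (edgeR adjusted p = 0.0936), with 4 of 5 pairs lower. With the replicate number as a block, the test gave -0.24 with an adjusted p of 0.0333, which passes. It passed too without control replicate 1 (-0.30, adjusted p = 0.0337) and without tunicamycin replicate 4 (-0.31, adjusted p = 0.0277). An unnamed long non-coding RNA outside the table shares 1120 exon bases on the opposite strand.

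MYLIP (ENSG00000007944, chromosome 6, 16129086 to 16148248, plus strand) was too sparse to test. Control replicates 1 to 5 had 7, 4, 1, 0 and 0 counts, and tunicamycin replicates 1 to 5 had 1, 1, 1, 0 and 0. That is 15 counts in all, 11 of which came from control replicates 1 and 2. At this depth no difference in MYLIP could be resolved, and when all genes were kept in the fit its log2 fold change was -1.54 with an edgeR adjusted p of 0.293.

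**Figure D1:**
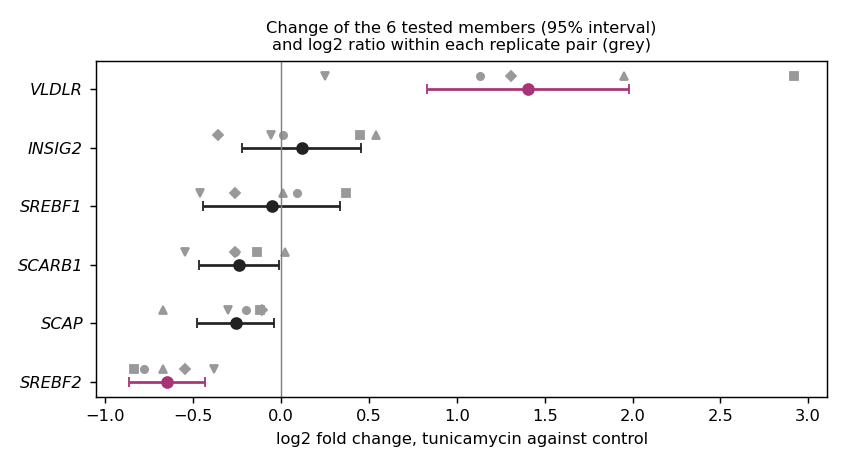
Fitted log2 fold change of tunicamycin against control (x axis) for the 6 tested members, with 95% intervals as bars and the log2 ratio of each replicate pair in grey with the same marker shapes as in the plot by library. VLDLR at 1.4 and SREBF2 at -0.65, in purple, passed an adjusted p of 0.05, and the intervals of SCAP and SCARB1 ended just below 0 before adjustment.

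Within each condition the tested members kept the same order of mean normalized counts, from SCARB1 through SCAP, SREBF2, SREBF1 and INSIG2 to VLDLR. In control cells SCARB1 stood 1.46 times above SCAP, SCAP 1.93 times above SREBF2, and SREBF2 2.24 times above SREBF1. SREBF1 and INSIG2 were the only neighbours whose libraries overlapped, in control and in tunicamycin alike. INSIG2 was 4.33 times above VLDLR in control cells and 1.82 times above it in tunicamycin.

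Ratios between members within a library asked whether partner transcripts changed unequally. They depend on library scaling only through the 0.5 added to each normalized count, which matters most for VLDLR. SREBF1 stood at 0.27, 0.386, 0.479, 0.591 and 0.537 of SREBF2 in control replicates 1 to 5 and at 0.492, 0.889, 0.586, 0.943 and 0.51 in tunicamycin. The ratio was higher in 4 of 5 pairs and the groups overlapped. Its mean log2 value went from -1.20 ± 0.45 to -0.60 ± 0.45 (SD, n = 5 each), a difference of 0.59 that did not pass (exact two-sided permutation test, p = 0.0952, adjusted over 3 ratios 0.143). The precursor transcripts were therefore not shown to respond differently, although only that of SREBF2 passed its own test.

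INSIG2 per SCAP ranged from 0.119 to 0.198 in control and from 0.138 to 0.364 in tunicamycin, with replicate 4 the highest treated value. The difference in mean log2 ratio was 0.39, higher in 4 of 5 pairs (exact two-sided permutation test, p = 0.183, adjusted 0.183). Ratios with INSIG1 could not be formed.

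The receptor ratio differed between the conditions. VLDLR per SCARB1 was 0.0367, 0.00913, 0.0277, 0.0196 and 0.0324 in control replicates 1 to 5 and 0.0963, 0.0765, 0.082, 0.0746 and 0.0563 in tunicamycin. The groups did not overlap, and the ratio was higher in 5 of 5 pairs. By geometric mean, 44.3 SCARB1 fragments were counted per VLDLR fragment in control cells and 13.2 in tunicamycin. The difference in mean log2 ratio was 1.75 (exact two-sided permutation test, p = 0.00794, the smallest that 5 against 5 allows, adjusted 0.0238). With signs flipped within replicate pairs instead, where no p below 0.0625 is possible, the adjusted p was 0.188.

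**Figure D2:**
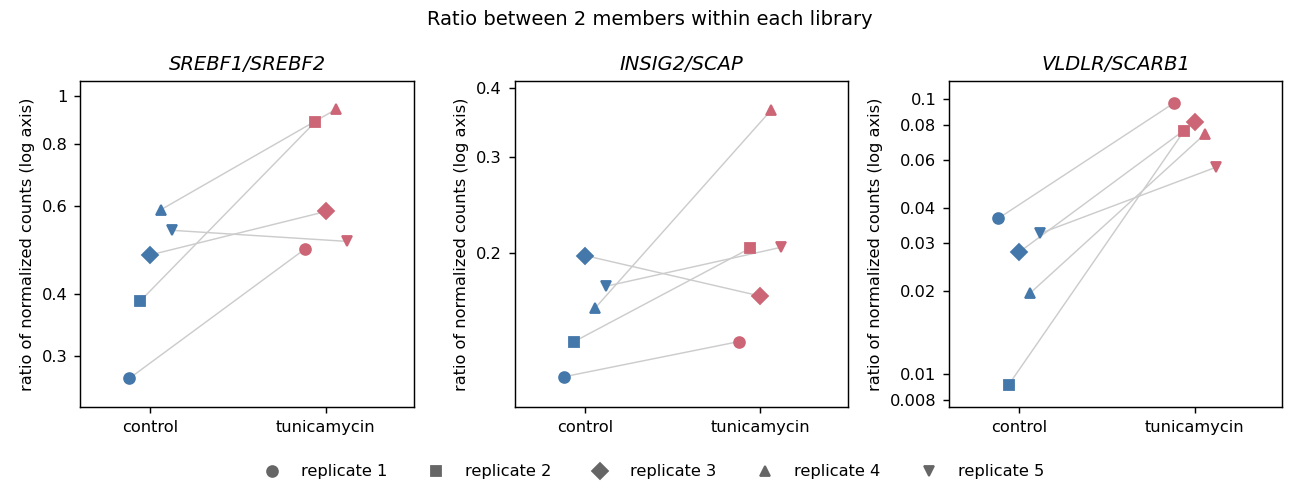
Ratio of normalized counts between 2 members in each library, on log y axes, for SREBF1/SREBF2, INSIG2/SCAP and VLDLR/SCARB1. Marker shapes give the replicate and grey lines join pairs. Only the VLDLR/SCARB1 values separate by condition, at 0.00913 to 0.0367 in control and 0.0563 to 0.0963 in tunicamycin.

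Genes around the members were grouped by role, and each count below stands beside 17.6% higher and 16.6% lower over all tested genes. Of 22 genes for SREBP processing and turnover, 8 rose, 2 fell and 12 did not pass, with a median log2 fold change of 0.21 beside -0.003 over all tested genes. With library size alone as the scaling, 5 rose and 5 fell with a median of 0.12, and without tunicamycin replicates 4 and 5, 4 rose. PAQR3, a Golgi protein that tethers the SCAP-SREBP complex, rose from 21.2 ± 3.33 to 36.9 ± 10.2 normalized counts (edgeR adjusted p = 0.0123). VCP, the ATPase that pulls ubiquitinated proteins out of the ER membrane, rose from 1050 ± 32.3 to 1620 ± 63.1 (adjusted p = 3.39e-06). ERLIN1, an ER membrane protein of the degradation pathway, and TMEM33, another ER membrane protein, rose by 0.58 and 0.58 on the log2 scale (adjusted p = 0.0128 and 0.00041). PGRMC1, a heme-binding membrane protein that associates with SCAP and INSIG1, and RNF145, an E3 ligase for SCAP, fell by 0.38 and 0.34 (adjusted p = 0.017 and 0.027). The site-1 protease gene MBTPS1, which makes the first cut in SREBPs, did not pass (0.11, adjusted p = 0.416), whereas MBTPS2, encoding the site-2 protease, rose (0.40, adjusted p = 0.0342, higher in 4 of 5 pairs). These proteases, like VCP, act on other ER substrates as well.

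Most genes that SREBPs are known to drive fell. Of 24 sterol synthesis and uptake genes tested, 19 fell, 0 rose and 5 did not pass, and the median log2 fold change was -1.15. DHCR7, the last enzyme of a cholesterol branch, went from 524 ± 65.2 to 167 ± 27.6 normalized counts (edgeR adjusted p = 3.75e-09). SQLE, squalene epoxidase, went from 1210 ± 46.7 to 403 ± 41.7 (adjusted p = 1.1e-10). HMGCS1, which makes HMG-CoA, went from 1060 ± 105 to 366 ± 45.3 (adjusted p = 1.47e-09). Their log2 fold changes were -1.65, -1.58 and -1.53, beside -0.65 for SREBF2, and the difference from SREBF2 was not tested. No gene of the list was called higher by edgeR or DESeq2, and 0 were higher at an unadjusted p under 0.05.

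Of 16 lipogenic genes tested, 13 fell, 0 rose and 3 did not pass, with a median of -0.86, and 0 were called higher by DESeq2 or at an unadjusted p under 0.05. ELOVL6, a fatty acid elongase, went from 79.8 ± 9.7 to 26 ± 6.47 normalized counts, and FASN, the fatty acid synthase, from 3310 ± 273 to 1270 ± 134 (edgeR adjusted p = 1.53e-06 and 1.72e-09). ACSS2, which makes cytosolic acetyl-CoA, and PNPLA3, a lipid droplet protein, fell by 1.39 and 1.18 on the log2 scale (adjusted p = 1.67e-06 and 2.64e-05). These genes fell while the SREBF1 transcript itself gave -0.05 and did not pass.

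The liver X receptors are sterol-sensing nuclear receptors known to drive SREBF1 and MYLIP. Of 14 genes of this axis tested, 1 rose, 4 fell and 9 did not pass, with a median of -0.23. The list was called about as often as genes in general, of which 34.2% passed. The receptor genes NR1H3 and NR1H2 did not pass (-0.31 and 0.21, edgeR adjusted p = 0.277 and 0.347). Their partner receptors RXRA and RXRB fell by 0.78 and 0.73 on the log2 scale (adjusted p = 1.49e-05 and 0.000657). MLXIPL, the carbohydrate-responsive factor ChREBP, fell by 0.95 (adjusted p = 5.14e-05), and NCOA1, a nuclear receptor coactivator, rose by 0.54 (adjusted p = 0.00146). Of the rest, ABCA1, LPCAT3, PLTP and NCOR1 did not pass (-0.21, -0.19, 0.12 and -0.09, edgeR adjusted p = 0.145, 0.376, 0.625 and 0.484). ABCG5, ABCG8 and SMPDL3A, at means of 6.73, 4.04 and 9.4 normalized counts, did not pass either (-0.24, -0.95 and 0.82, edgeR adjusted p = 0.773, 0.201 and 0.12).

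Of 24 other lipoprotein receptors, adaptors and receptor chaperones tested, 3 rose, 7 fell and 14 did not pass. Over all tested genes, 34.2% passed in either direction. The median of the receptor list, -0.05, lay close to that of all genes. Some genes of the receptor list are also in the sterol list. With the replicate number as a block 5 rose, and with library size alone as the scaling 1 rose. LRP10, of the same receptor family as VLDLR, rose 3.23-fold, from 64.2 ± 5.57 to 207 ± 20.6 normalized counts (edgeR adjusted p = 2.83e-09). The sorting receptor SORL1 and the endocytic adaptor NUMB rose by 0.37 and 0.32 on the log2 scale (adjusted p = 0.0178 and 0.0441). LRP3 fell by 0.82 and SORT1, the sorting receptor sortilin, by 0.44 (adjusted p = 0.00668 and 0.00382). LRP8, the receptor closest to VLDLR in the family, gave 123 ± 10.6 and 136 ± 6.91 normalized counts and did not pass (adjusted p = 0.314). LRPAP1, a chaperone for these receptors in the ER, fell by 0.43 (adjusted p = 0.000333). MESD, another chaperone of the list, did not pass (0.17, edgeR adjusted p = 0.136).

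The genes most like each member over the 10 libraries were found by Pearson's r of log2(normalized count + 0.5), as a description that includes the treatment difference and shares libraries and depth. Each was picked as the highest r from the 9707 genes with at least 20 normalized counts. How high the best r would be among unrelated genes over 10 libraries was not tested. SREBF2 was most like ACSS2 (r = 0.984) and NDST1 (0.976), both of which fell. SCAP was most like ABHD11 (0.974) and TRIM56 (0.973), and SCARB1 like NTN4 (0.954) and BAMBI (0.939). VLDLR was most like UTP23 (0.940) and PIAS3 (0.936), and PIAS3 rose by 1.23 on the log2 scale (edgeR adjusted p = 0.00123). SREBF1 was most like SHMT1 (0.917) and ABCC11 (0.909), and INSIG2 like ABCB10 (0.897) and FERMT2 (0.897), none of which passed the test.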

How the data were processed

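HepG2 cells were profiled by 3′ mRNA sequencing (QuantSeq FWD kit). The authors ran the nf-core RNA-Seq pipeline, left at its defaults, on hg19 with Ensembl transcripts and deposited raw counts per gene for all 10 libraries. The aligner, counter and strand setting that these defaults imply are not given in the sources used here. Libraries were grouped by the treatment label. Genes with at least 10 counts in all and at least 2 in enough libraries were kept (edgeR filterByExpr), 12733 of 32738, with 15320 genes at 0 throughout. Counts were TMM-scaled and tested with edgeR 4.0.16 (R 4.3.3, limma 3.58.1), glmQLFit and glmQLFTest, with condition as the only term and Benjamini-Hochberg adjustment over all tested genes. Ratios used a pseudocount of 0.5 and an exact permutation test, adjusted over the 3 of 5 ratios that could be formed.

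Alternatives were DESeq2 1.42.0, its size factors, library size alone, other filters, a replicate block, thinning to the smallest library, leaving out libraries, a pseudocount of 1 and, added after seeing the data, removal of mitochondrial genes. The fit was tested on simulated data. The series text places the replicate experiments on separate days, from which same-numbered libraries were taken as pairs. Their deviations from the group means correlated at 0.36, 0.0197, 0.0764, 0.162 and 0.137 for replicates 1 to 5 over 9707 genes. Intervals and floors cover counting error only where they rest on a single library.

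The 8 members and all gene lists were chosen with earlier results of these data known. From each pathway list, up to 4 higher and 4 lower called genes with the largest fold change, at least 20 normalized counts and the same direction in 5 of 5 pairs were named. MBTPS1, MBTPS2, NR1H3, NR1H2, LRP8, LRPAP1 and MESD were named beside them for their roles, after their values were seen. The other liver X receptor list genes that did not pass were named after their values were seen too. The motifs were chosen after the counts had been seen, and the printed promoters after the matches were known. A few list genes that this rule selects are counted in the lists but are not reported here by name. Positions come from GENCODE and promoters from RefSeq, both GRCh38, and were not joined to hg19 coordinates.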

Additional observations from a re-analysis of the deposited data

Results flagged for a closer look

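In 72 groups of 5 libraries, over the members and named genes, 4 held a library far from the other 4, and chance alone flags about 1 in 20, or 3.6. SREBF2 in tunicamycin replicate 5, the shallowest library, stood at 218 normalized counts beside 169 to 177 in the other treated libraries. Leaving that library out, SREBF2 still fell. VCP in control replicate 3 stood at 1110 beside 1030 to 1040, and ELOVL6 in control replicate 4 at 96.8 beside 72.3 to 77.9. MLXIPL in tunicamycin replicate 4 stood at 1380 beside 760 to 936.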

How the results depend on the processing

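Of 495 recomputed values, 454 stayed within the bounds set for them, which were the same direction and side of the threshold for a tested value, 1.5 times for a count of genes and 1 SD over the replicate pairs for a median. VLDLR stayed higher and SREBF2 lower in every fit that was run, with log2 fold changes of 1.18 to 1.60 and -0.71 to -0.62 when a library was left out. The cause of the changes below was not tested unless stated.

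With library size alone as the scaling, which moved the median of all genes to -0.083, SCAP (-0.33) and SCARB1 (-0.33) were called and 3 members were lower. The SREBP processing list then had 5 higher and 5 lower with a median of 0.12, and the receptor list 1 higher with a median of -0.14. Calls over all genes split into 1774 higher and 2570 lower there, against 2237 and 2116. Under edgeR's default filter SCAP (-0.27, adjusted p = 0.0483) was called, making 2 members lower. The replicate block called SCAP (-0.27) and SCARB1 (-0.24), for 3 members lower, and 5 receptor list genes higher. Over all genes the block called 2499 higher and 2312 lower, more than the 2237 and 2116 without it. It changed no call of the other members. For VLDLR/SCARB1, flipping signs within pairs left the difference at 1.75 but cannot pass with 5 pairs.

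Thinned to the smallest library, INSIG2 turned to -0.02, the processing list had 5 higher and 1 lower, and the receptor list's median was 0.04. Without tunicamycin replicates 4 and 5, INSIG2 was -0.02, SCARB1 was called (-0.32) and 2 members were lower. The processing list then had 4 higher, and the sterol list's median was -1.25. VLDLR/SCARB1 was 1.90 there (exact permutation test, adjusted p = 0.0536). With 5 against 3 libraries, a ratio that alone reaches the smallest p cannot pass after adjustment over the 3 ratios.

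Leaving out each library in turn gave -0.18 to 0.06 for SREBF1, positive without control replicate 4 (0.05) or 5 (0.02) and without tunicamycin replicate 1 (0.06) or 3 (0.01), never called. SCAP ranged from -0.31 to -0.17 and SCARB1 from -0.31 to -0.16. Members called lower ranged from 1 to 2, processing genes called lower from 1 to 2 (1 without control replicate 3 or tunicamycin replicate 2), liver X receptor genes called higher from 1 to 2 (2 without control replicate 4), and receptor genes called higher from 2 to 5 (5 without control replicate 4). Medians ranged from -1.24 to -1.11 for the sterol list and from -0.09 to 0.05 for the receptor list. Depth limits MYLIP and the single VLDLR values.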
